A study of Mus musculus with 8 samples.

Results

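The genes described here are 10 factors and targets of the YAP/TEAD transcription unit, taken by symbol from the gene rows of the count tables. They are Cyr61, Ctgf, Ankrd1, Amotl1, Amotl2, Lats2, Ajuba, Yap1, Wwtr1 and Tead1. This list was chosen with earlier results of these data known, so it is not blind to how the genes moved. All 10 were found among the 24421 genes of the files, and all 10 were among the 14606 genes with enough reads to test. Cyr61 and Ctgf are the older symbols of Ccn1 and Ccn2, and Wwtr1 is the gene of the protein called TAZ. The row named Taz in the files is tafazzin, a different gene, and was not used.

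YAP, the product of Yap1, and its paralog TAZ are coactivators without a DNA-binding domain of their own. They act in the nucleus through TEAD factors, which bind DNA. In the Hippo pathway the MST kinases activate LATS kinases, and LATS phosphorylation keeps YAP and TAZ in the cytoplasm, bound by 14-3-3 proteins, or marks them for degradation. Cyr61, Ctgf and Ankrd1 are classical transcripts switched on by YAP/TAZ and TEAD, and Amotl2 and Lats2 are targets that in turn hold YAP back. The pathway responds to cell density, shape and tension, and in kidney epithelia it is known for its part in tubule growth and repair.

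RNA attached to tagged ribosomes (RiboTRAP) was sequenced from the kidneys of 4 mice after ischemia and reperfusion injury (IRI) and of 4 sham mice (Sham), in order to learn how cells of the collecting duct respond to the injury. Mice of both groups carried HoxB7-Cre and the Gt(ROSA)26Sor-mCherry-Rpl10a allele, so that cells with a history of HoxB7-Cre make ribosomes with an mCherry tag. In the IRI group the renal vessels were clamped for 30 min and the kidneys taken 9 h later, and the Sham group had surgery without clamping. The methods give male mice 10 to 16 weeks old for this surgery, and no separate harvest time for Sham. HoxB7-Cre is active in the mesonephric duct and what arises from it, which includes the ureteral epithelium as well as the collecting duct, and the beads were added to a lysate of whole kidney. Each library is 1 mouse.

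Gene totals ran from 13518005 to 27496808 reads in IRI libraries and from 25210299 to 29285812 in Sham libraries, with IRI replicate 2 the smallest. Reads without a unique alignment, which enter no gene, were 29.5% to 34.3% of the counted lines in IRI and 20.9% to 22.8% in Sham. For the label of collecting duct cells, the study reported by qPCR that Aqp2 was enriched in the pulldown over whole kidney RNA. No library of whole kidney is in these data, so enrichment was not measured here. Instead, the groups were compared by 12 principal cell markers, among them Aqp2. Their summed level, as counts scaled to a common library size (CPM), was 2978 to 5080 CPM in IRI and 15857 to 19925 CPM in Sham, and all 12 were lower in IRI. All 9 intercalated cell markers were also lower, with sums of 982 to 1551 CPM in IRI and 2817 to 3611 CPM in Sham. Urothelial markers summed to 74.6 to 227 CPM in IRI and 215 to 343 CPM in Sham, with 2 of 6 lower. Markers of the proximal tubule, which lies outside the HoxB7 lineage, summed to 10471 to 22530 CPM in IRI and 8026 to 10916 CPM in Sham, and 8 of 12 were higher in IRI. Endothelial markers summed to 358 to 733 CPM in IRI and 209 to 293 CPM in Sham, with 6 of 10 higher, and neutrophil markers to 55.8 to 155 CPM in IRI and 2.80 to 6.08 CPM in Sham, with all 7 tested higher. Macrophage markers summed to 64.1 to 107 CPM in IRI and 34.0 to 48.5 CPM in Sham, with 3 of 9 higher. Fibroblast and pericyte markers summed to 281 to 1673 CPM in IRI and 210 to 355 CPM in Sham, with 2 of 11 higher and the maximum in IRI replicate 2. Thick limb and distal convoluted tubule markers summed to 1310 to 2091 CPM in IRI and 1080 to 2032 CPM in Sham, with 1 of 6 higher. Podocyte markers summed to 266 to 525 CPM in IRI and 140 to 349 CPM in Sham, with 1 of 7 higher. No marker tested in these lists was at 0 in every library. In such bulk RNA a change in the number of cells of a type and a change in RNA per cell cannot be told apart, and the part of these other cell types in the values of the YAP/TEAD genes was not tested.

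Unless stated otherwise, levels are CPM scaled by TMM, which corrects each library total for its composition, and fold changes are IRI over Sham on the log2 scale, where 1 is a doubling. A gene was called higher or lower where the p-value of edgeR's quasi-likelihood test, adjusted over all 14606 genes by the Benjamini-Hochberg method, was under 0.01. Standard errors (SE) and 95% intervals come from limma-voom, and ± is the SD over n = 4 mice per group. Of the 10 genes, 7 were called higher in IRI and 0 lower, beside 25.1% of all tested genes called higher, 24.6% called lower and 49.7% called in either direction. In 7 of 10 every IRI library was above every Sham library (28.8% of all tested genes), and in 1, Ajuba, every IRI library was below (29.8%), while groups without overlap made up 58.6% of all tested genes. The median log2 fold change of the 10 was 1.27, against -0.01 over all tested genes. The 3 classical targets Cyr61, Ctgf and Ankrd1, the coactivators Yap1 and Wwtr1, Tead1 and Amotl1 were the 7 higher genes, while Amotl2, Lats2 and Ajuba did not pass the test.

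**Figure D1:**
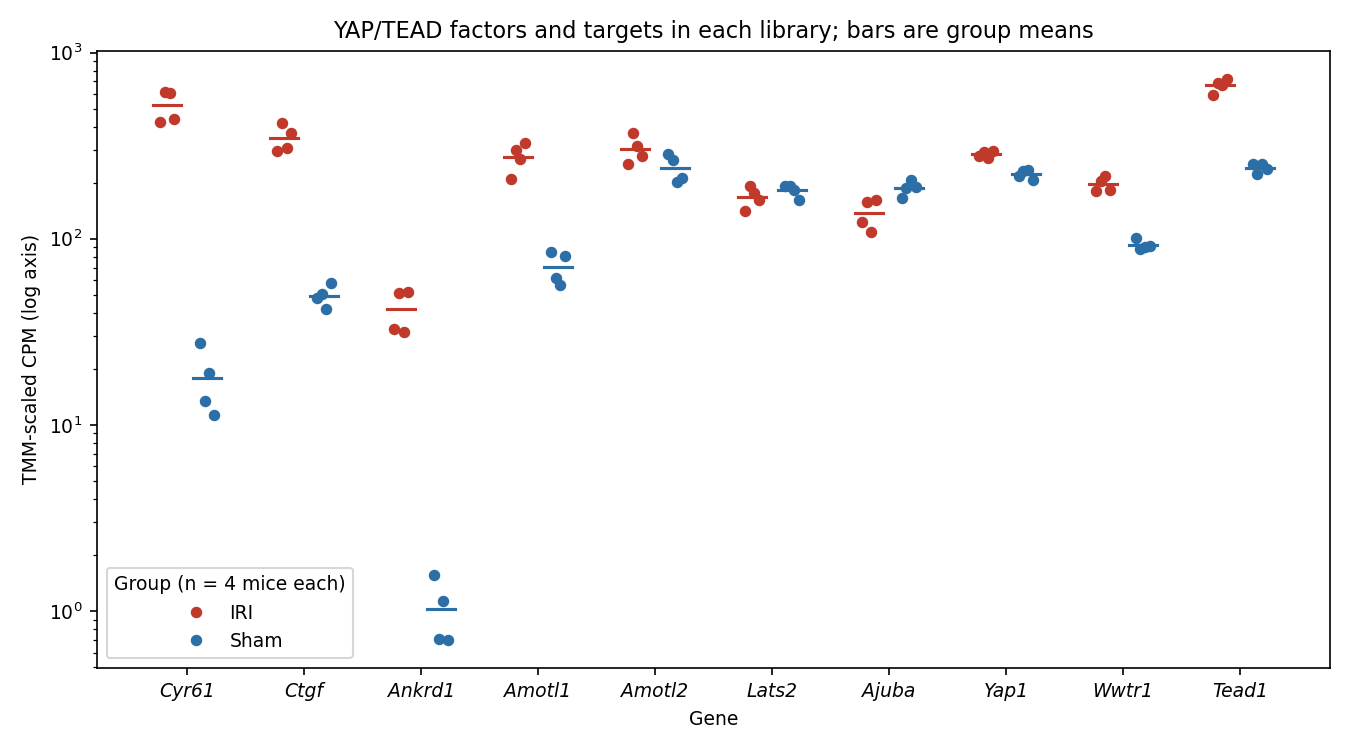
TMM-scaled CPM (log axis) of the 10 genes in each library, with IRI mice in red left of Sham mice in blue and bars at the group means (n = 4 each). Ankrd1, Cyr61 and Ctgf show the widest gaps between the groups, and the points of Amotl2 and Lats2 overlap.

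The sequence to which TEAD factors bind contains the letters GGAATG, so the promoter windows of RefSeq (build GRCm38.p6, 250 bases before to 50 bases after the start site) were searched for it on both strands. A window was found for 8 of the 10 genes, all but Ctgf and Tead1. Of these 8, 7 hold at least 1 copy, while among all genes with a window the share is 16.6% of 27025. The members were chosen as factors and targets of YAP/TEAD, so this contrast is not a test. A match is a run of letters and does not show that a factor binds there. The 250 bases before the start site are shown for Cyr61 (chr3:145649986-145650235, minus strand), the most abundant of the 3 classical targets in IRI. They read 5′ to 3′ along the gene, with GGAATG, or CATTCC where the match is on the other strand, in capitals.
Cyr61: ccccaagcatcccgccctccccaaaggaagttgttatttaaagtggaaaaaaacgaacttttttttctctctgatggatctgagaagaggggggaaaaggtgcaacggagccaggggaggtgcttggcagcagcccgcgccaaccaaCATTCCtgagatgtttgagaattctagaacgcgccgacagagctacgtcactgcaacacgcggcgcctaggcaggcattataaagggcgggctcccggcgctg

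The copy before Cyr61 begins 103 bases before the start site and is on the other strand. Ankrd1 has 2 copies on the strand of the gene, 210 and 123 bases before the RefSeq start. Stretches of 30 bases around the copies of 6 further members are shown because the 3 genes that were not called carry the same letters as those that were. They lie at chr9:102717727-102717756 on the plus strand for Amotl2, and on the minus strand at chr19:36120037-36120066 and chr19:36119950-36119979 for Ankrd1, chr14:57746102-57746131 for Lats2, chr14:54577830-54577859 and chr14:54577808-54577837 for Ajuba, chr9:8004720-8004749 for Yap1 and chr3:57576029-57576058 for Wwtr1.
Ankrd1, 210 bases before the start: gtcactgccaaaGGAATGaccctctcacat
Ankrd1, 123 bases before the start: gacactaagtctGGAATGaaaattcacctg
Amotl2, 65 bases before the start: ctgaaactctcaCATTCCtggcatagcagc
Lats2, 5 bases into the transcript: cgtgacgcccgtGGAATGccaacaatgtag
Ajuba, 186 bases before the start: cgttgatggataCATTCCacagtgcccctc
Ajuba, 164 bases before the start: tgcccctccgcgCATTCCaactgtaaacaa
Yap1, 141 bases before the start: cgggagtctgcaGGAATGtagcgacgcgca
Wwtr1, 136 bases before the start: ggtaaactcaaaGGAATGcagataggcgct

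The RefSeq window of Amotl1 holds no copy, and Amotl1 was called higher, so the presence of these letters did not separate called from uncalled members. The windows of Ankrd1, Amotl1, Amotl2 and Lats2 lie inside the span that GENCODE gives these genes, so other start sites exist that were not searched. In GENCODE all 250 bases before the RefSeq start of Ankrd1 and 136 of those of Amotl2 are exon of the same gene, and the copies of these genes lie there, so they are upstream of the RefSeq start and not of every annotated transcript. Lats2 and Wwtr1 each have a second window. That of Wwtr1 overlaps the first and holds the same copy, and that of Lats2 holds none. The AP-1 motif TGANTCA was in 0 of the 8 genes' windows, against 8.97% of all genes with a window. The CArG box, the binding sequence of SRF, was likewise in 0 of 8, against 1.81% of all genes. Both were searched on both strands, and neither result says anything of the factors outside these windows.

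**Figure D2:**
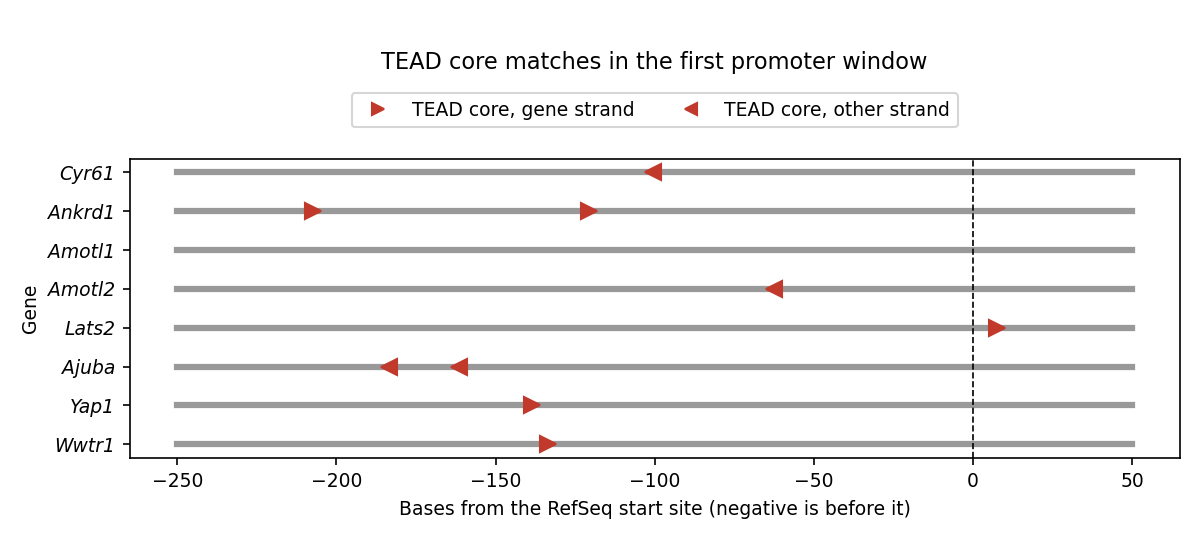
Copies of the TEAD core letters in the first RefSeq window of 8 genes, plotted by distance in bases from the start site, with triangles pointing right on the strand of the gene and left on the other strand. Ankrd1 and Ajuba have 2 copies each and Amotl1 has none.

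Cyr61 encodes a secreted matricellular protein of the CCN family that binds integrins, and lies on chromosome 3 from 145646976 to 145649981 on the minus strand (GRCm38, GENCODE M21, as for all positions of whole genes here). Its level was 421, 616, 608 and 441 CPM in IRI replicates 1 to 4, and 27.5, 13.5, 19.0 and 11.3 CPM in Sham replicates 1 to 4. The lowest IRI library stood far above the highest Sham library, Sham replicate 1. The means were 522 ± 105 CPM in IRI and 17.8 ± 7.21 CPM in Sham, a 29.3-fold rise (log2 fold change 4.87, SE 0.26, edgeR adjusted p = 2.8e-06). By fitted rise it ranked 81 of the 14606 tested genes, and Ankrd1 ranked 55.

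Ctgf (chromosome 10, 24595442 to 24598683) is the CCN paralog known as connective tissue growth factor. Its level was 297, 416, 307 and 370 CPM in IRI replicates 1 to 4, and 47.8, 50.3, 41.9 and 58.0 CPM in Sham replicates 1 to 4. Both groups were narrow and far apart, and the gene rose 7.02-fold (log2 fold change 2.81, SE 0.13, edgeR adjusted p = 1.3e-06). Of its exon bases, 23.2% overlap Gm15270 on the opposite strand. Gm15270 has no row in the count tables, and no source used here says whether the counting used strand, so reads of that stretch cannot be told apart. Cyr61 and Ctgf were both highest in IRI replicate 2, the smallest library and the one with the highest endothelial and fibroblast marker sums. Without it the log2 fold change was 4.78 for Cyr61 and 2.71 for Ctgf. Leaving out that library does not separate cell types, and their part in these rises was not tested.

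Ankrd1 encodes a muscle ankyrin repeat protein first described in heart (chromosome 19, 36111961 to 36120099). It gave 837, 660, 504 and 1098 reads in IRI replicates 1 to 4, and 42, 20, 36 and 19 reads in Sham replicates 1 to 4. As levels these were 32.8, 51.4, 31.4 and 52.1 CPM in IRI, against 1.57, 0.71, 1.14 and 0.70 CPM in Sham. The gene was near the low end of detection in Sham and well measured in every IRI library. Its rise of 40.5-fold was the largest of the 10 genes (log2 fold change 5.34, SE 0.42, edgeR adjusted p = 1.8e-06), with a 95% interval of 4.40 to 6.30 that includes the estimate for Cyr61. The order of the 2 genes is therefore within their error.

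The 2 other ANKRD family members tested, both known from muscle, had few reads. Ankrd2 gave 16, 12, 13 and 11 reads in IRI and 1, 3, 1 and 1 reads in Sham (edgeR adjusted p = 1.0e-04), and Ankrd23 gave 26, 10, 14 and 26 reads in IRI and 36, 12, 32 and 30 reads in Sham (edgeR adjusted p = 0.962). Ankrd2 was called higher and Ankrd23 was not, and Ankrd1 held nearly all reads of the family in IRI. In Sham, Ankrd23 had more reads than Ankrd1 in replicate 4 and somewhat fewer in the other 3.

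Tead1 encodes the TEAD factor with the most reads in these libraries (chromosome 7, 112679318 to 112906807). It was at 589, 685, 672 and 722 CPM in IRI replicates 1 to 4, and at 253, 224, 251 and 236 CPM in Sham replicates 1 to 4. No library came near the other group, and the rise was 2.77-fold (log2 fold change 1.47, SE 0.09, edgeR adjusted p = 2.8e-06). Tead4, a paralog, was at 12.1, 18.2, 18.9 and 20.1 CPM in IRI and at 2.84, 3.01, 3.45 and 3.47 CPM in Sham, and rose 5.41-fold (log2 fold change 2.44, SE 0.22, edgeR adjusted p = 5.6e-06). Tead3 averaged 24.7 ± 1.20 CPM in IRI and 23.3 ± 0.942 CPM in Sham (edgeR adjusted p = 0.344). Tead2 averaged 2.85 ± 0.373 CPM in IRI and 3.40 ± 0.492 CPM in Sham (edgeR adjusted p = 0.235). Thus 2 of the 4 TEAD genes were called, both higher, beside 49.7% of all tested genes called in either direction and 25.1% called higher.

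The vestigial-like (VGLL) proteins compete with YAP and TAZ for TEAD factors. Vgll4, an inhibitor of YAP-TEAD binding, was at 23.4, 24.1, 21.7 and 24.0 CPM in IRI and at 54.2, 49.0, 40.2 and 41.5 CPM in Sham. Every IRI library was below every Sham library, and the gene fell 1.98-fold (log2 fold change -0.99, SE 0.11, edgeR adjusted p = 5.2e-05). Vgll3 was at 9.05, 32.6, 15.3 and 20.2 CPM in IRI and at 8.47, 8.92, 10.1 and 8.02 CPM in Sham (edgeR adjusted p = 0.0146). Its groups overlapped and its maximum was in IRI replicate 2, where fibroblast markers were also highest; their part in that value was not tested. Vgll1 had 1 to 41 reads in IRI and 0 to 10 in Sham (edgeR adjusted p = 0.0530), and Vgll2 had 0 reads in all 8 libraries. The 7 tested TEAD and VGLL genes had a median log2 fold change of 1.11, which is the value of the uncalled Vgll3, with 2 higher, 1 lower and 4 not called. Over all tested genes 25.1% were called higher and 24.6% lower, so these counts are near those shares.

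Wwtr1 (chromosome 3, 57455649 to 57575910) is the gene of TAZ. It was at 181, 205, 217 and 182 CPM in IRI replicates 1 to 4, and at 101, 88.4, 90.4 and 91.9 CPM in Sham replicates 1 to 4. The groups were separate, and Wwtr1 rose 2.11-fold (log2 fold change 1.08, SE 0.08, edgeR adjusted p = 8.5e-06). Yap1 (chromosome 9, 7931999 to 8004596) encodes YAP, and 1.25% of its exon bases overlap Gm20416 on the opposite strand. It was at 280, 292, 272 and 295 CPM in IRI, and at 217, 230, 235 and 208 CPM in Sham. These groups did not overlap either, but the rise was only 1.28-fold (log2 fold change 0.36, SE 0.07, edgeR adjusted p = 0.00249). Of the 7 calls this was the one that did not hold throughout. It was lost with scaling by total counts (0.16, adjusted p = 0.0911), with upper quartile factors (0.24, adjusted p = 0.0175), and without Sham replicate 1 (0.32, adjusted p = 0.0139) or Sham replicate 4 (0.30, adjusted p = 0.0138), all in edgeR. With the replicate number as a block it was also lost (0.36, edgeR adjusted p = 0.0210).

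The scaling matters for small changes because total counts shift the median gene by -0.19 on the log2 scale and upper quartile factors by -0.12. With total counts 2784 genes were called higher and 4912 lower, against 3667 higher and 3595 lower with TMM. The ratio of Wwtr1 to Yap1 reads within a library needs no scaling. Its geometric mean was 0.687 in IRI, with libraries from 0.616 to 0.797, and 0.417 in Sham, with libraries from 0.384 to 0.466. The log2 ratio differed by 0.72 between the groups (exact permutation test, two-sided, p = 0.0286, adjusted p = 0.0286 over 8 ratios), and 0.0286 is the smallest p-value possible with 4 mice in each group. The ratio was higher in every IRI mouse than in any Sham mouse.

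Amotl1 and Amotl2 encode angiomotin-like proteins, which sit at junctions and can bind YAP. Amotl1, on chromosome 9 from 14541966 to 14645056, was at 209, 301, 269 and 326 CPM in IRI replicates 1 to 4, and at 85.0, 61.7, 56.3 and 80.7 CPM in Sham replicates 1 to 4. The groups were well apart, and Amotl1 rose 3.90-fold (log2 fold change 1.96, SE 0.17, edgeR adjusted p = 1.7e-05). Amotl2, on chromosome 9 from 102716672 to 102733418, was at 252, 370, 313 and 278 CPM in IRI, and at 283, 266, 201 and 212 CPM in Sham. Its groups overlapped, since Sham replicates 1 and 2 exceeded the lowest IRI library, and the difference of 0.33 (SE 0.15, edgeR adjusted p = 0.0806) did not pass. The voom interval of 0.01 to 0.68 for that difference, which is not adjusted for the number of genes, does not extend to a doubling.

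Within each library the ratio of Amotl2 to Amotl1 reads had a geometric mean of 1.10 in IRI (0.852 to 1.23) and 3.41 in Sham (2.63 to 4.31). The log2 ratio was lower in IRI by 1.63 (difference -1.63, exact permutation test, two-sided, p = 0.0286, adjusted p = 0.0286). In Sham Amotl2 had more reads than Amotl1 in all 4 mice, and in IRI replicate 4 it had fewer. Amot, the founding member of the family, averaged 57.4 ± 12.8 CPM in IRI and 40.1 ± 8.12 CPM in Sham (edgeR adjusted p = 0.0397) and was not called.

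Lats2 (chromosome 14, 57689662 to 57758388) encodes a kinase that phosphorylates YAP and TAZ. It was at 141, 193, 176 and 162 CPM in IRI replicates 1 to 4, and at 192, 191, 183 and 161 CPM in Sham replicates 1 to 4. The groups overlapped across most of their range (log2 fold change -0.12, SE 0.11, edgeR adjusted p = 0.356, 95% interval -0.36 to 0.12). That interval leaves no room for a rise of the size seen in Tead1 or Ctgf. Of the exon bases of Lats2, 42.4% overlap Gm49361 on the same strand, a gene model with no row in the count tables, and these reads cannot be told apart. Lats1, its paralog, averaged 240 ± 12.1 CPM in IRI and 197 ± 12.01 CPM in Sham and was called higher (log2 fold change 0.29, SE 0.07, edgeR adjusted p = 0.00943). The Lats2 to Lats1 ratio had a geometric mean of 0.695 in IRI and 0.925 in Sham, a log2 difference of -0.41 (exact permutation test, two-sided, p = 0.0286, adjusted p = 0.0286). Without Sham replicate 2 or Sham replicate 3 its adjusted p was 0.0571 or 0.0653, with differences of -0.37 and -0.41.

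Ajuba encodes a LIM protein that binds LATS kinases and limits their action on YAP (chromosome 14, 54567472 to 54577558). It was at 123, 157, 109 and 161 CPM in IRI replicates 1 to 4, and at 165, 187, 208 and 189 CPM in Sham replicates 1 to 4. It was the only one of the 10 with every IRI library below every Sham library, although IRI replicate 4 and Sham replicate 1 nearly met. The log2 fold change of -0.45 (SE 0.14, 95% interval -0.77 to -0.15) had an edgeR adjusted p of 0.0166 and did not pass. It did pass, as lower, with total counts (-0.64, edgeR adjusted p = 0.0031), with upper quartile factors (-0.56, edgeR adjusted p = 0.0053), with DESeq2 (-0.44, DESeq2 adjusted p = 0.0053) and without IRI replicate 4 (-0.53, edgeR adjusted p = 0.0087). Limd1, a LIM protein of the same family, averaged 191 ± 8.02 CPM in IRI and 193 ± 8.04 CPM in Sham (edgeR adjusted p = 0.857). The ratio of Ajuba to Limd1 reads had a geometric mean of 0.712 in IRI and 0.969 in Sham, a log2 difference of -0.44 (exact permutation test, two-sided, p = 0.0286, adjusted p = 0.0286). The adjusted p was 0.0571 to 0.0857 when any of IRI replicates 1 and 3 and Sham replicates 2, 3 and 4 was left out, with differences of -0.46 to -0.34.

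**Figure D3:**
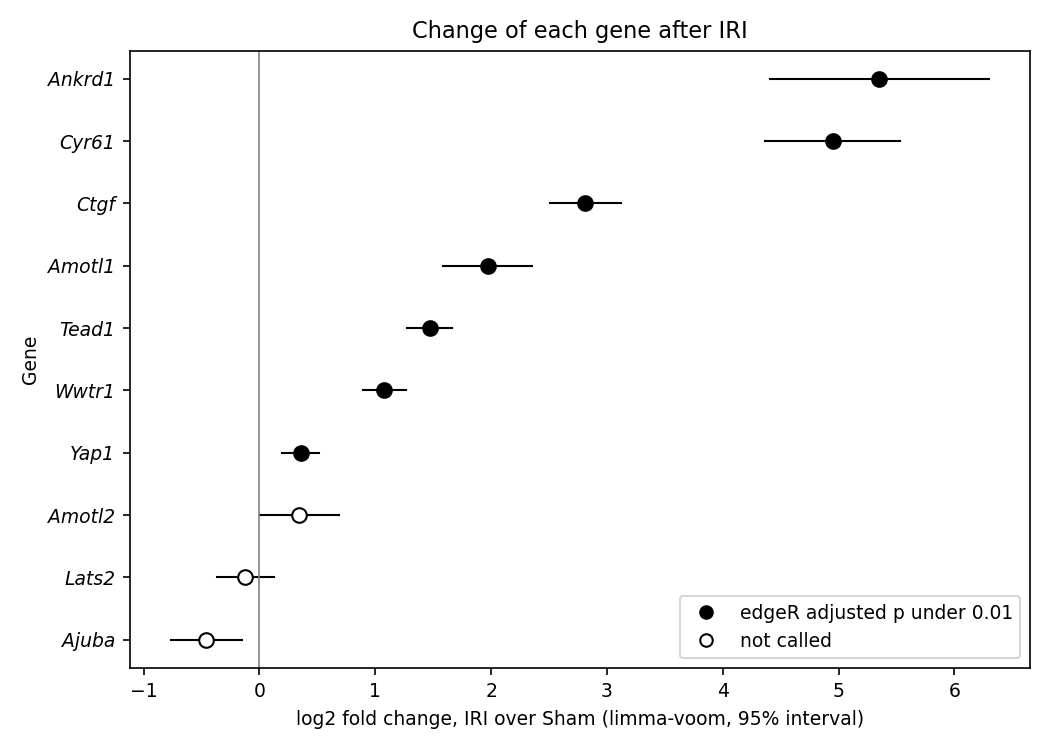
Limma-voom log2 fold change of each of the 10 genes, IRI over Sham, with its 95% interval, filled where the edgeR adjusted p was under 0.01. The estimates run from 5.35 for Ankrd1 to -0.46 for Ajuba, and 3 genes are open circles.

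The same ratio was taken for 8 pairs of related genes, and each separated all IRI from all Sham libraries with the same exact permutation p of 0.0286. Groups without overlap made up 58.6% of all tested genes taken singly. The share among other pairs of genes was not taken, so whether separation is particular to these pairs is not known. Between the paired targets, the ratio of Cyr61 to Ctgf reads had a geometric mean of 1.49 in IRI (1.19 to 1.98) and 0.342 in Sham (0.195 to 0.575), a log2 difference of 2.13. Cyr61 thus had fewer reads than Ctgf in every Sham mouse and more in every IRI mouse. The ratio of Tead1 to Tead3 was 26.9 in IRI and 10.3 in Sham, and that of Tead1 to Tead2 was 232 in IRI and 71.0 in Sham. Against Tead4 the ratio went the other way, at 39.0 in IRI and 75.3 in Sham (log2 difference -0.95). These are ratios of reads, not of molecules, because the genes differ in length.

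**Figure D4:**
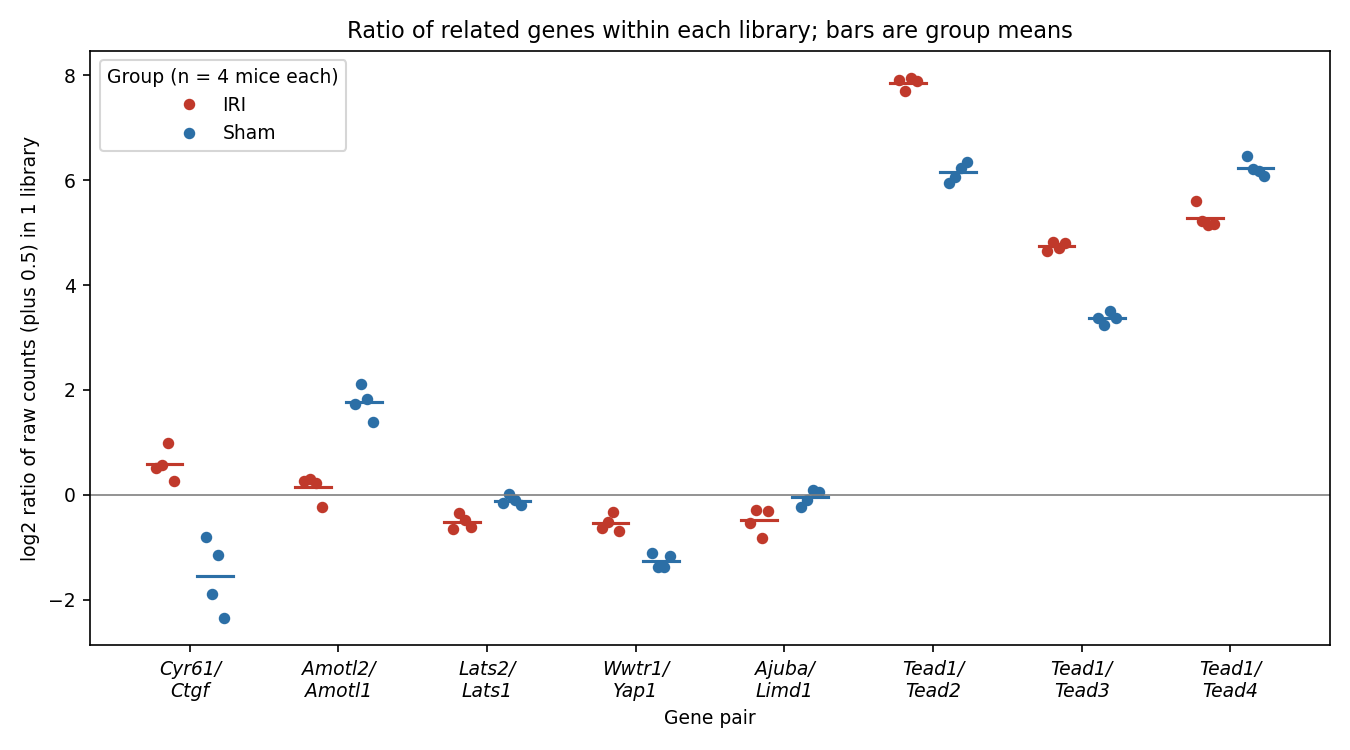
Log2 ratio of the read counts (plus 0.5) of 2 related genes within each library, with IRI mice in red left of Sham mice in blue and bars at the group means (n = 4 each). In every pair the groups are separate, with Cyr61/Ctgf 2.13 higher and Amotl2/Amotl1 1.63 lower in IRI (log2 difference -1.63).

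To set genes against each other, CPM was divided by the length of the gene's exons in kilobases (RPKM). That length joins the exons of all annotated transcripts of a gene, not those expressed here, and the order depends on it. In IRI the order of these levels was Cyr61 at 258 ± 51.8, Ctgf at 121 ± 19.5, Tead1 at 49.2 ± 4.13, Amotl2 at 48.2 ± 8.13, Wwtr1 at 41.0 ± 3.68, Ajuba at 37.7 ± 6.95, Yap1 at 30.8 ± 1.17, Amotl1 at 27.5 ± 5.01, Lats2 at 24.1 ± 3.16 and Ankrd1 at 14.5 ± 3.94 RPKM. In Sham it was Ajuba at 51.3 ± 4.76, Amotl2 at 38.2 ± 6.42, Lats2 at 26.1 ± 2.06, Yap1 at 24.0 ± 1.36, Wwtr1 at 19.4 ± 1.16, Tead1 at 17.8 ± 1.02, Ctgf at 17.3 ± 2.33, Cyr61 at 8.82 ± 3.57, Amotl1 at 7.04 ± 1.40 and Ankrd1 at 0.357 ± 0.143 RPKM. The secreted targets Cyr61 and Ctgf thus stood at the top of the order in IRI and in its lower part in Sham, where Ajuba was first. Several neighbours lie within their spread, among them Tead1 and Amotl2, and Wwtr1 and Ajuba, in IRI, and Lats2 and Yap1, and Tead1 and Ctgf, in Sham. Among the TEAD paralogs, Tead1 far exceeded the others, with Tead4 at 4.82 ± 0.986, Tead3 at 3.69 ± 0.179 and Tead2 at 0.596 ± 0.0780 RPKM in IRI and at 0.887 ± 0.0889, 3.47 ± 0.140 and 0.710 ± 0.103 RPKM in Sham.

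The animals' numbers fall into a low and a high series, the first of 3 IRI mice and 1 Sham mouse and the other of 1 IRI mouse and 3 Sham mice, and what these series stand for is not stated. Within the low and the high series the log2 difference was 4.30 and 4.95 for Cyr61, 2.81 and 2.90 for Ctgf, 4.56 and 5.94 for Ankrd1, and 1.60 and 2.32 for Amotl1. It was 1.35 and 1.61 for Tead1, 0.99 and 1.01 for Wwtr1, and 0.37 and 0.40 for Yap1. It was 0.12 and 0.31 for Amotl2, -0.19 and -0.14 for Lats2, and -0.37 and -0.27 for Ajuba. In the 7 called genes and Ajuba the groups do not overlap, so a shared direction in both series was fixed in advance. Each series has 1 mouse in 1 of its groups, so only the sizes are given and a series effect was not tested.

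Genes were compared with Cyr61 by the root mean square difference of log2 CPM over the 8 libraries after each gene's Sham mean was subtracted. This difference depends mostly on how close the rise of a gene is to that of Cyr61. It does not show that genes vary together between mice. Among 11296 genes with a mean of at least 5 CPM, Areg, an EGF receptor ligand, was closest to Cyr61 with a difference of 0.353. Adamts1, a secreted protease, followed at 0.402, then Ankrd1 at 0.429, Apln, the apelin precursor, at 0.450, and Dusp5, a phosphatase of ERK kinases, at 0.451. Adamts1 was abundant, at 1023 ± 55.5 CPM in IRI and 42.2 ± 7.90 CPM in Sham. Areg was at 10.4 ± 2.29 CPM in IRI and 0.319 ± 0.144 CPM in Sham, so it reached the mean of 5 CPM only through IRI. The Sham means of Ankrd1, Apln and Dusp5 were also under 5 CPM, at 1.03, 2.32 and 3.27 CPM. Of the other members, Ctgf stood at rank 166 and Amotl1 at rank 445, so Ankrd1 was the only member among the 5 closest.

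Beyond the 10 genes, a YAP/TEAD target signature of 22 genes was examined, 5 of which are among the 10. Of 21 tested, 11 were higher, 1 lower and 9 not called, with a median log2 fold change of 0.71, beside 25.1% of all tested genes higher and 24.6% lower. Of the 16 that are not among the 10, 8 were higher, 1 lower and 7 not called. F3, tissue factor, which starts coagulation, was at 273, 342, 246 and 454 CPM in IRI and at 32.3, 31.5, 33.2 and 34.6 CPM in Sham. The Sham mice were nearly equal, and F3 rose 9.995-fold (log2 fold change 3.32, SE 0.17, edgeR adjusted p = 1.8e-06). Igfbp3, Gadd45a, Axl, Ccdc80, Asap1, Dock5 and Fjx1 were the other higher genes, between 1.64-fold for Fjx1 and 3.85-fold for Igfbp3. Of these, Ccdc80, Axl and Asap1 were highest in IRI replicate 2, where fibroblast markers were also highest, and the others were not. Ccdc80 was at 42.2 CPM there and at 13.5 to 20.8 CPM in the other IRI libraries. The part of other cell types in these values was not tested. Nuak2, a kinase of the AMPK family, fell 1.61-fold (log2 fold change -0.68, edgeR adjusted p = 0.00619), with 69.7 to 99.0 CPM in IRI and 107 to 176 CPM in Sham. That single lower call was lost with the animal series as covariate and without any 1 of 5 libraries. Foxf2 had too few reads to test.

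Of the CCN family, to which Cyr61 and Ctgf belong, all 4 tested genes were higher in IRI, and 2 of these are among the 10. Over all tested genes 25.1% were called higher. Nov, the third CCN gene, was at 2.47, 4.60, 3.74 and 1.99 CPM in IRI and at 0.63, 0.50, 1.08 and 0.52 CPM in Sham, a 4.59-fold rise (log2 fold change 2.20, SE 0.36, edgeR adjusted p = 5.7e-04). Wisp1, a CCN protein known as a Wnt target, was at 16.9, 30.5, 29.6 and 29.4 CPM in IRI and at 7.02, 6.48, 7.70 and 7.69 CPM in Sham, a 3.67-fold rise (log2 fold change 1.88, SE 0.22, edgeR adjusted p = 3.0e-05). No Sham library reached the lowest IRI library in either gene. Wisp2, with 0 to 14 reads in IRI and 1 to 7 in Sham, and Wisp3, with 0 in all libraries, were not tested. Summed over the family, the level was 899 ± 142 CPM in IRI and 75.4 ± 6.26 CPM in Sham, most of it Cyr61 and Ctgf.

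The kinases and adaptors of the Hippo cassette were 6 higher, 0 lower and 5 not called of 11, with a median log2 fold change of 0.29, beside 25.1% of all tested genes called higher and 24.6% called lower. Map4k4, a kinase that can stand in for MST in activating LATS, was at 242, 371, 325 and 312 CPM in IRI and at 70.3, 58.8, 74.7 and 63.2 CPM in Sham, and rose 4.68-fold (log2 fold change 2.23, SE 0.13, edgeR adjusted p = 2.8e-06). Taok3 and Taok1, kinases upstream of MST, rose 1.77-fold and 1.31-fold, Sav1, the MST scaffold, 1.64-fold, and Mob1a, the LATS coactivator, 1.38-fold. Lats1 was the sixth and the nearest to the threshold. The number higher was 4 with total counts, upper quartile factors, the replicate block or the animal series as covariate, and also without any one of IRI replicates 2, 3 and 4 and Sham replicates 1, 2 and 4. The core MST kinases themselves, Stk3 and Stk4, were not called, at 29.5 ± 2.51 CPM in IRI and 25.8 ± 2.50 CPM in Sham for Stk3 (edgeR adjusted p = 0.113), and 112 ± 8.91 CPM in IRI and 96.2 ± 3.14 CPM in Sham for Stk4 (edgeR adjusted p = 0.0291). Mob1b and Taok2 had log2 fold changes of 0.05 and -0.23 (edgeR adjusted p = 0.494 and 0.0412).

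Upstream and junctional regulators were 7 higher, 2 lower and 15 not called of 24, with a median of 0.20. The share higher was near the 25.1% of all tested genes, and the share lower was under their 24.6%. Besides Amotl1, the higher genes included Rassf1, an adaptor of MST kinases, at 86.5 ± 8.87 CPM in IRI and 21.9 ± 1.92 CPM in Sham (3.95-fold). Wwc1, the gene of KIBRA, which promotes LATS activation, fell 1.52-fold, to 456 ± 34.7 CPM in IRI, against 693 ± 39.1 CPM in Sham (SE 0.08 about a log2 fold change of -0.60, edgeR adjusted p = 3.1e-04). Its paralog Wwc2 fell 1.302-fold. The number of lower genes here was sensitive to scaling, at 8 with total counts and 6 with upper quartile factors. Nf2, the gene of merlin, averaged 127 ± 5.65 CPM in IRI and 156 ± 16.9 CPM in Sham and was not called (edgeR adjusted p = 0.0140).

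Of 7 genes of 14-3-3 proteins, which bind phosphorylated YAP in the cytoplasm among many other partners, 5 were higher and 0 lower, with a median of 1.20. Sfn, the epithelial 14-3-3 sigma, rose 6.59-fold, to 222 ± 33.6 CPM in IRI, against 33.7 ± 4.69 CPM in Sham (edgeR log2 fold change 2.72, adjusted p = 1.3e-06, SE 0.13). Ywhag rose 2.47-fold and Ywhaz 2.43-fold. SRF and its MRTF coactivators, which respond to actin and share targets with YAP/TEAD, were examined with their targets. Of these 16 genes 13 were higher and 0 lower, with a median of 1.31. Both lists stand beside 25.1% of all tested genes called higher and 24.6% called lower. Fhl2, a LIM-domain cofactor, rose 5.32-fold, Tagln2, an actin-binding protein, 4.44-fold, and Flna, the actin cross-linker filamin A, 4.36-fold, to 1490 ± 287 CPM in IRI, against 342 ± 76.5 CPM in Sham.

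**Figure D5:**
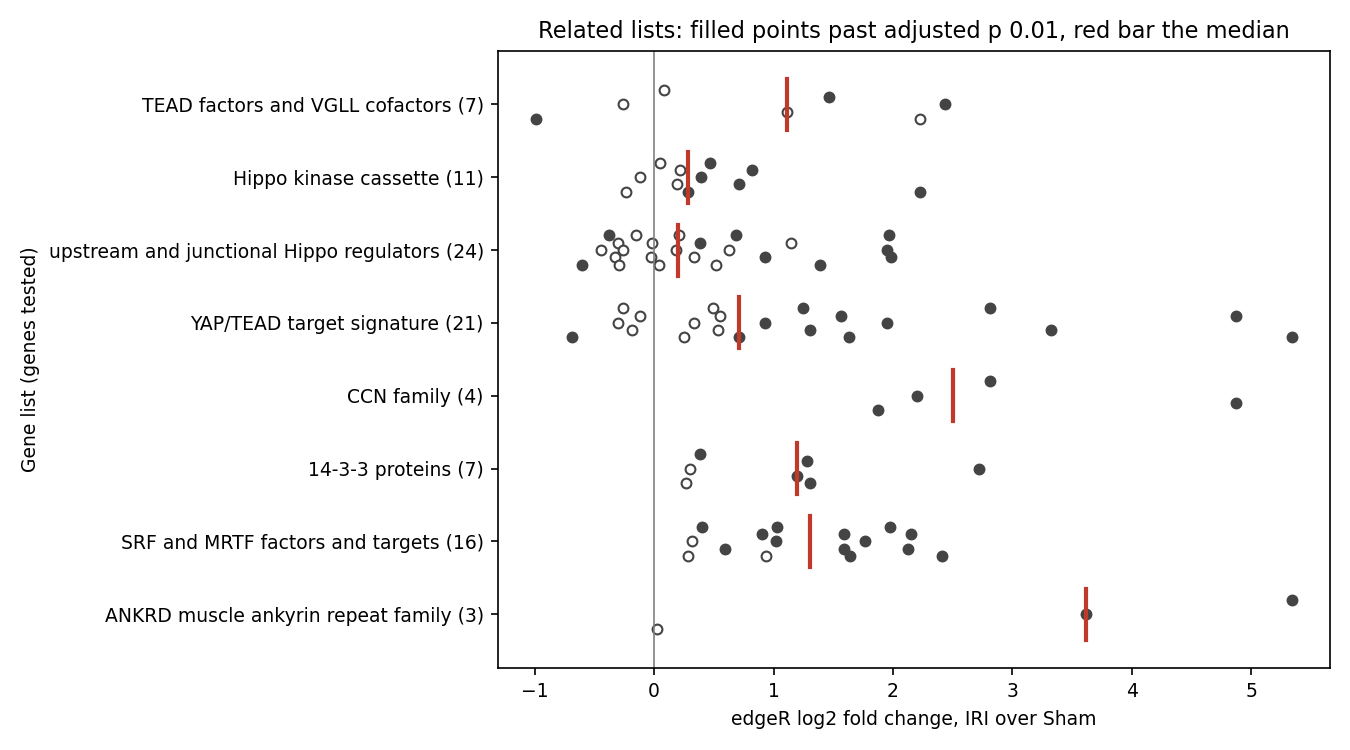
edgeR log2 fold change, IRI over Sham, of each tested gene in 8 lists, filled where the adjusted p was under 0.01, with a red bar at the list's median. Medians run from 0.20 for upstream and junctional regulators to 3.62 for the 3 genes of the ANKRD family, against -0.01 over all tested genes. The ANKRD median is the value of Ankrd2, which had only 11 to 16 reads in IRI and 1 to 3 in Sham.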

How the data were processed

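RNA-seq libraries of 8 mice were analysed, 4 IRI and 4 Sham. Per the submitters' processing notes the authors aligned reads to mm10 with TopHat2 2.1.1 and counted them with HTSeq, and they deposited raw counts per gene symbol, without normalization. Annotation release and strand setting were not given in the sources used here. HTSeq's summary lines (43.3% to 52.3% of the lines in IRI, 33.3% to 37.7% in Sham) name no gene and entered neither library sizes nor tests.

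In R 4.3.3, edgeR 4.0.16 (TMM, filterByExpr with minimum count 10 and minimum total 15, quasi-likelihood test, Benjamini-Hochberg adjustment, threshold 0.01 after the study's methods) tested 14606 of 24421 genes without covariates. limma 3.58.1 (voom) gave standard errors and intervals. Ratios of reads (plus 0.5) were compared by exact permutation tests, and positions and lengths came from GENCODE M21. DESeq2 1.42.0, other scalings, filters and thresholds, a replicate block, the animal series as covariate and leaving out each library were alternatives.

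All 10 members are named, with up to 3 genes per list and direction among those past the threshold without overlap and with at least 1 CPM, all members of the TEAD and VGLL, kinase and CCN lists, and the 5 genes most like Cyr61. Amot, Limd1, Nf2, Ankrd2, Ankrd23 and the smaller rises of the target signature were named for their family or after their values were seen, and 1 gene that the rule selects is not reported here. The members and lists were chosen with earlier results of these data known. Tested on simulated data for IRI against Sham with 14606 genes, edgeR recovered 7 of 50 genes changed 1.5-fold, 35 of 50 changed 2-fold and 49 of 50 changed 4-fold. In that simulation 14406 of the 14606 genes were left unchanged, while 49.7% of tested genes were called in the data. Its adjusted threshold was therefore stricter, and these rates do not carry over to the data.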

Additional observations from a re-analysis of the deposited data

Results flagged for a closer look

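In each group of 4 mice the highest and lowest values of the members, the ratios and a part of the list genes were compared with the others. Of 96 such groups 4 held a library far from the other 3 (Dixon's test), which is about the rate that chance gives, 1 in 20. Wwc1 was at 508 CPM in IRI replicate 4 and at 435 to 442 CPM in the other IRI libraries. Lats1 was at 222 CPM in IRI replicate 1 and at 245 to 248 CPM in the others. Wisp1 was at 16.9 CPM in IRI replicate 1 and at 29.4 to 30.5 CPM in the others. The log2 ratio of Amotl2 to Amotl1 reads was -0.23 in IRI replicate 4 and 0.22 to 0.30 in the others.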

How the results depend on the processing

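Cyr61, Ctgf, Ankrd1, Amotl1, Wwtr1 and Tead1 kept their direction and their call in 18 of 18 alternatives, with log2 fold changes of 4.62 to 5.14 for Cyr61, 2.62 to 2.88 for Ctgf, 5.15 to 5.58 for Ankrd1, 1.77 to 2.07 for Amotl1, 0.89 to 1.11 for Wwtr1 and 1.28 to 1.52 for Tead1. The call of Yap1 was lost in 5 alternatives and Ajuba was called lower in 5, a threshold of 0.05 among them. Nothing reversed. The number of members called lower was 1, Ajuba, with total counts, upper quartile factors, DESeq2 and an adjusted p of 0.05, and 0 to 1 with a library left out. In the Hippo cassette 1 gene was lower with total counts, upper quartile factors and a threshold of 0.05. Of the upstream regulators 8 were lower with total counts, 6 with upper quartile factors, 5 with DESeq2, 6 at 0.05, 1 with the replicate block, and 2 to 4 with a library left out (4 without IRI replicate 4). In the target signature 3 were lower with total counts, 0 with the animal series as covariate, and 0 to 1 with a library left out (0 without each of IRI replicates 1, 3 and 4 and Sham replicates 2 and 3). With at least 1 CPM in 4 libraries 1 ANKRD gene was higher.

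Same-numbered IRI and Sham mice did not deviate together: the 4 correlations ran from -0.55 to -0.08, and 0 of 4 libraries correlated best with their own number. The replicate block called 2870 genes higher and 2712 lower in edgeR. In the paired sign-flip test of the ratios, whose smallest p with 4 pairs is 0.125, the differences were 2.13 for Cyr61/Ctgf, -1.63 for Amotl2/Amotl1, -0.41 for Lats2/Lats1, 0.72 for Wwtr1/Yap1, -0.44 for Ajuba/Limd1, and 1.71, 1.38 and -0.95 for Tead1 against Tead2, Tead3 and Tead4, each at that smallest p. With a library left out Ajuba/Limd1 ran from -0.51 to -0.34 (adjusted p up to 0.0857, exact permutation test) and Lats2/Lats1 from -0.47 to -0.37 (adjusted p up to 0.0653). On simulated data, in which far fewer genes changed than in these, 1.5-fold changes were recovered for 7 of 50 genes. That rate does not carry over to these data, where called genes with changes below that fold include Yap1 and Lats1.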
